A study of Saccharomyces cerevisiae with 10 samples.

Results

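Deletion strains of 10 non-essential genes of the CTF19 complex were followed here, namely CTF3, MCM16, MCM22, CTF19, MCM21, CHL4, IML3, CNN1, NKP1 and NKP2. They were found by gene symbol in the annotation of the array, which named 5325 deletion strains in all, and every one of the 10 had values on all 10 arrays. The CTF19 complex of budding yeast, Saccharomyces cerevisiae, is the inner layer of the kinetochore. It sits on the centromeric nucleosome that carries the histone variant Cse4, ties it to the outer kinetochore that holds the microtubule, and loads cohesin around the centromere. Most of its subunits can be deleted in a haploid, and such strains are known for losing chromosomes. It is built of smaller units. Ctf3, Mcm16 and Mcm22 form the Ctf3 complex, the counterpart of human CENP-I, CENP-H and CENP-K. Ctf19 and Mcm21 belong to the COMA complex with the essential Okp1 and Ame1, Chl4 binds Iml3, Cnn1 is the counterpart of human CENP-T and a receptor for the Ndc80 complex, and Nkp1 pairs with Nkp2.

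Per the labels, a pool of 5896 heterozygous diploid knockout strains was sporulated, and MATa haploids were selected at 30 °C on magic medium with or without benomyl, a drug that depolymerises microtubules. The tags that mark each strain were amplified from genomic DNA of both pools, labelled with Cy5 for the pool without drug and Cy3 for the pool with drug, and hybridised together to a TagArray. There was 1 array for each dose of 0, 1, 5, 10, 15, 20, 25, 30, 35 and 40 µg/ml, and on the 0 µg/ml array neither pool had drug. Selection took 2 days for doses up to 10 µg/ml, 3 days for 15 µg/ml and 4 days for doses of 20 µg/ml or more.

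Each value below is a log2 ratio of the 2 dyes, set to 0 at the median spot of its array and averaged over all spots of a strain. The labels do not say which dye is the numerator. Cy5 over Cy3 is taken as likely from the dyes, and a positive value then means that the strain was scarcer in the drug pool than in the pool without drug, relative to the median strain. With Cy3 as the numerator the sign of every value would be inverted. Each dose has a single array, so an error here is the spread of the arrays around a straight line, and longer selection goes with higher dose. The standard deviation over all strains grew from 0.51 on the 0 µg/ml array to 1.46 at 40 µg/ml, and the array at 10 µg/ml was handled differently before deposition, since only 5.43% of its ratios are whole hundredths against at least 99.97% on the other arrays.

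The strains lacking CTF3, MCM16, CTF19 and CHL4 rose with dose, and their values climbed mainly at the highest doses. MCM16 had the largest fitted log2 change from 0 to 40 µg/ml, at 2.40 ± 0.55 (SE, n = 10 arrays, limma adjusted p = 0.0113), or 5.27-fold. CTF19 followed at 2.21 ± 0.47 (limma adjusted p = 0.00802), then CHL4 at 2.01 ± 0.64 (limma adjusted p = 0.0481) and CTF3 at 1.70 ± 0.42 (limma adjusted p = 0.0164). The 6 other members did not pass the threshold of 0.05. In all, 4 of 10 members rose and none fell, while 10.3% of all strains rose and 9.13% fell. With arrays scaled to equal spread, MCM16, CTF19, CHL4 and CTF3 were at 1.38, 1.25, 1.23 and 0.89. None of them passed there (limma adjusted p = 0.0644, 0.0969, 0.268 and 0.0891). After quantile normalization MCM16 alone passed, at 1.51 (limma adjusted p = 0.0373). Of all strains, 41 and 111 rose in these 2 settings. Without such scaling, the median fitted change was 1.10 for the members and 0.09 for all strains. All 10 members had a positive change there, as did 2881 of all 5325 strains. Not every sign held when single arrays were left out. MCM22 was at -0.18 without the 40 µg/ml array and NKP1 at -0.11 without the 35 µg/ml array.

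**Figure D1:**
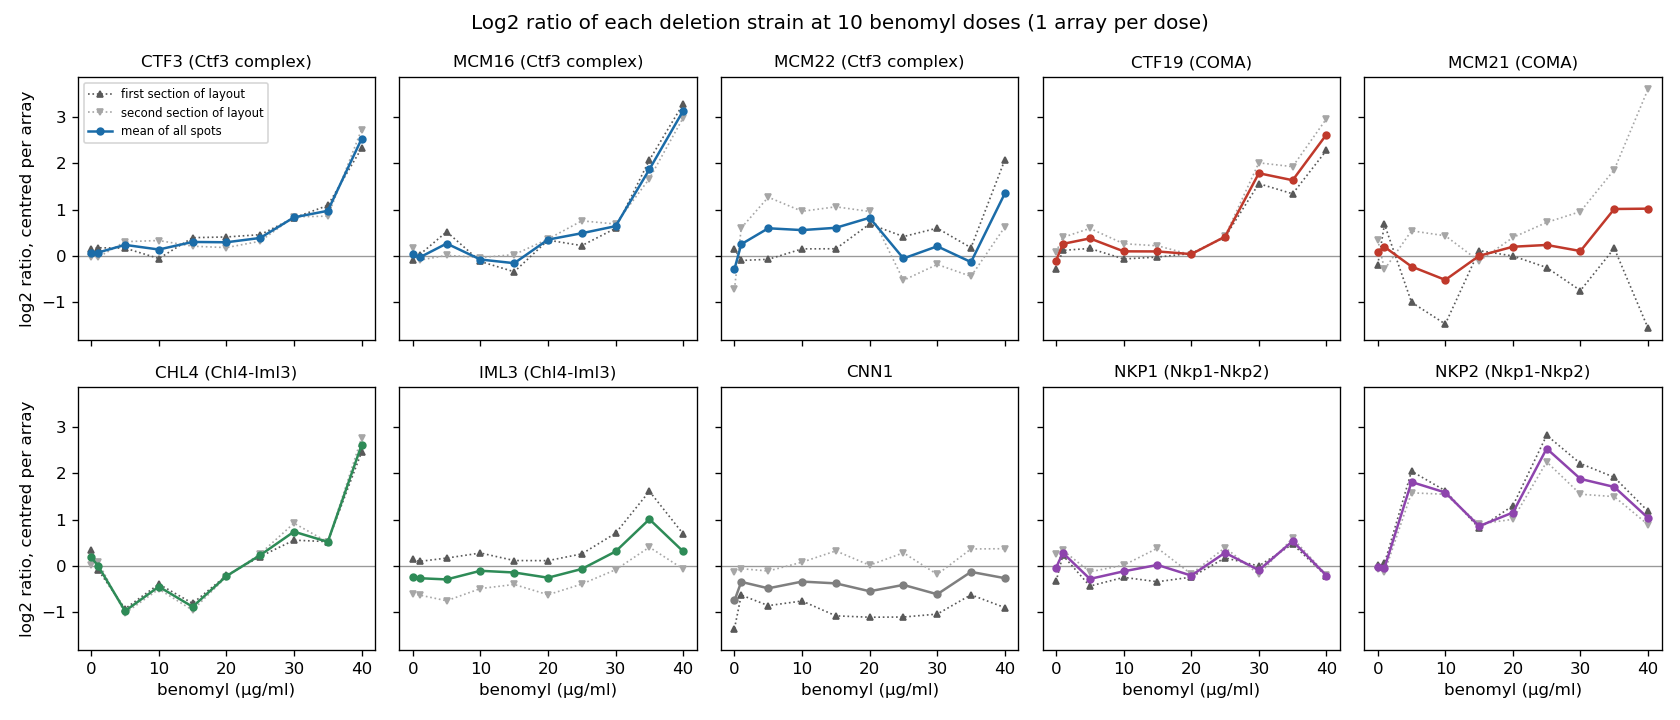
Log2 ratio, centred on the array median, of each of the 10 deletion strains against benomyl dose in µg/ml. Coloured points are the mean of all spots and grey triangles the means of the spots in each of the 2 sections of the array layout. MCM16 reaches 3.14 at 40 µg/ml, NKP2 is at 1.81 from 5 µg/ml, CNN1 stays below 0, and the sections part for MCM21.

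The Ctf3 complex is described first. MCM16 (YPR046W) was at 0.05, -0.03, 0.27, -0.08 and -0.16 from 0 to 15 µg/ml, and at 0.35, 0.49, 0.64, 1.87 and 3.14 from 20 to 40 µg/ml. The strain thus lay close to the median of the pool up to 15 µg/ml and its ratio was 8.80 times the median ratio at 40 µg/ml, where only 2.20% of strains were higher. CTF3 (YLR381W), whose product gives the trimer its name, was at 0.06, 0.07, 0.24, 0.14 and 0.30 from 0 to 15 µg/ml, and at 0.30, 0.39, 0.84, 0.98 and 2.53 above that. It was above the median on every array, with its largest step between 35 and 40 µg/ml. MCM22 (YJR135C), the third subunit, was at -0.28, 0.25, 0.60, 0.56 and 0.61 and then at 0.83, -0.05, 0.21, -0.13 and 1.35. Its course had no steady direction, with a fitted change of 0.38 ± 0.44 (limma adjusted p = 0.579).

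Of the COMA pair, only CTF19 (YPL018W) passed. Its values were -0.10, 0.26, 0.38, 0.10 and 0.10 from 0 to 15 µg/ml and 0.04, 0.42, 1.79, 1.64 and 2.62 from 20 to 40 µg/ml. At 30 µg/ml CTF19 was the highest of the 4 rising strains on that single array, with a ratio of 3.45 times the median ratio, where those of CTF3, CHL4 and MCM16 were 1.78, 1.67 and 1.56 times. MCM21 (YDR318W) was at 0.08, 0.20, -0.23, -0.52 and 0.00, then at 0.20, 0.24, 0.11, 1.02 and 1.02. Its fitted change of 0.99 ± 0.34 missed the threshold (limma adjusted p = 0.0638).

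CHL4 and its partner IML3 stood at 2.61 and 0.31 at 40 µg/ml, but the difference between their courses did not pass the test of pairs. CHL4 (YDR254W) was at 0.18, 0.01, -0.97, -0.45 and -0.88 from 0 to 15 µg/ml and at -0.22, 0.23, 0.74, 0.52 and 2.61 from 20 to 40 µg/ml. It was thus below the median from 5 to 20 µg/ml, with 91.0% of strains above it at 15 µg/ml, and among the top 3.47% at 40 µg/ml. IML3 (YBR107C) was at -0.23, -0.27, -0.29, -0.10 and -0.14 and then at -0.25, -0.07, 0.31, 1.01 and 0.31. Its mean crossed the median only from 30 µg/ml, but its 2 spots stood apart. One was above the median on every array, between 0.10 and 1.61. The other was below it on every array but that at 35 µg/ml, where it was at 0.41. The fitted change of IML3, at 0.89 ± 0.30, missed the threshold (limma adjusted p = 0.0573).

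CNN1 and NKP1 showed the smallest fitted changes of the 10, at 0.23 ± 0.24 and 0.12 ± 0.30 (limma adjusted p = 0.533 and 0.814). CNN1 (YFR046C) was below the median on every array, between -0.75 at 0 µg/ml and -0.13 at 35 µg/ml. NKP1 (YDR383C) stayed between -0.28 and 0.54, with its highest value also at 35 µg/ml.

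NKP2 was already high at low dose, a description that no test here addresses. NKP2 (YLR315W) was at -0.02 and -0.04 at 0 and 1 µg/ml, at 1.81, 1.59, 0.86, 1.15 and 2.54 from 5 to 25 µg/ml, and at 1.88, 1.71 and 1.04 from 30 to 40 µg/ml. At 5 µg/ml only 1.24% of strains were higher, and at 25 µg/ml only 1.39%, so that NKP2 was the highest member on each array from 5 to 30 µg/ml. A straight line describes such a course poorly, and its fitted change was 1.22 ± 0.62 (limma adjusted p = 0.196). Against log2(dose + 1) it was 1.72 ± 0.55 and did not pass either (limma adjusted p = 0.0758).

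**Figure D2:**
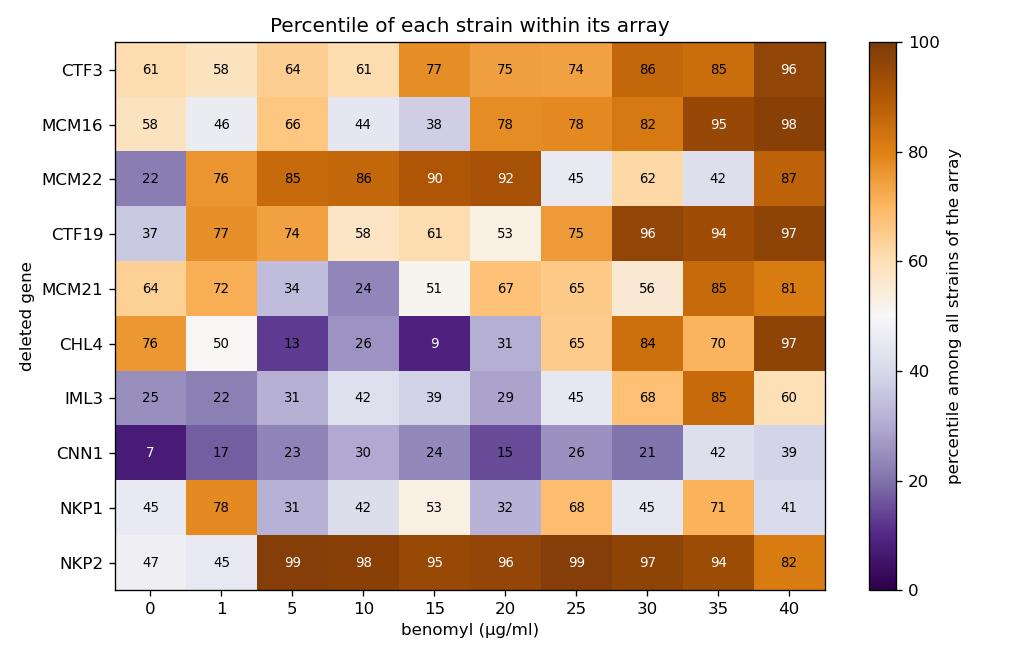
Percentile of each of the 10 strains among all strains of the same array, by benomyl dose in µg/ml, with the number in each cell rounded. NKP2 lies at 94.0 or higher from 5 to 35 µg/ml and at 81.5 at 40 µg/ml, CTF19 is at 96.4 at 30 µg/ml and MCM16 at 95.2 at 35 µg/ml. CTF3 and CHL4 are at 96.3 and 96.5 at 40 µg/ml.

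Counts of strains with a ratio at least 2-fold above the median ratio of the array show at which dose each member stood out, without a fitted line. None of the 10 members was that high at 0, 1 or 15 µg/ml, where 2.42%, 3.91% and 4.3% of all strains were. NKP2 was the single member at 5, 10, 20 and 25 µg/ml, where 6.29%, 5.37%, 5.71% and 10.6% of strains were so high. At 30 µg/ml there were 2 members, NKP2 and CTF19, against 11.1% of strains. At 35 µg/ml there were 5, namely MCM16, CTF19, MCM21, IML3 and NKP2, against 14.8%. At 40 µg/ml there were 7 of 10, all but IML3, CNN1 and NKP1, against 19.3%. Some log2 values were barely high enough, namely MCM21 (1.02 at both doses), IML3 (1.01 at 35 µg/ml) and NKP2 (1.04 at 40 µg/ml). By section, MCM21 read 0.17 and 1.86 on the 35 µg/ml array, where IML3 read 1.61 and 0.41. On the 40 µg/ml array MCM21 read -1.56 and 3.61, MCM22 2.08 and 0.63, and NKP2 1.18 and 0.89. One section thus fell short in each of these cases, while the remaining members counted on each array passed in both. No member had a ratio 2-fold below the median ratio on any array, where 3.83%, 3.55%, 12.1%, 12.7%, 7.46%, 7.1%, 9.88%, 12.5%, 14.3% and 18.1% of strains were so from the lowest to the highest dose. There is no test for single arrays.

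**Figure D3:**
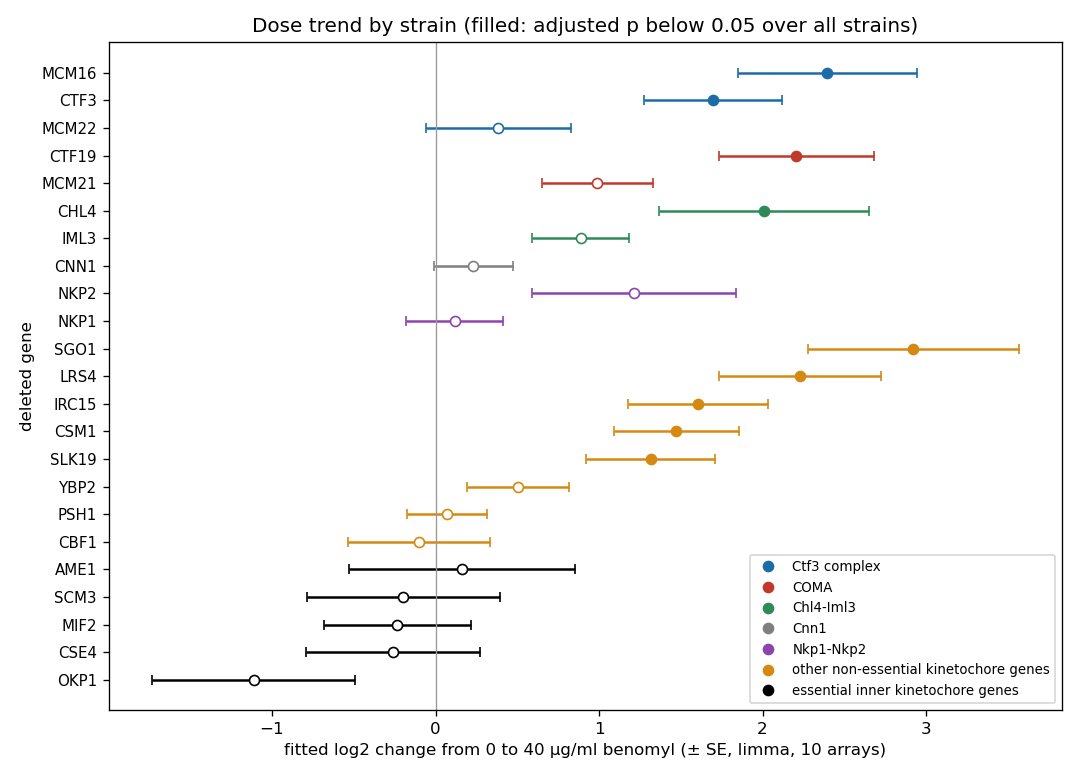
Change in log2 ratio fitted between 0 and 40 µg/ml, ± SE, for the 10 members by subcomplex and for 2 lists of other kinetochore genes. Filled points passed the threshold over all strains. MCM16, CTF19, CHL4 and CTF3 lie between 1.70 and 2.40, and the 5 essential genes lie between -1.11 and 0.16.

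The calls depend on the top of the dose range. Without the 40 µg/ml array, CTF3 alone remained called, at 0.93, while MCM16, CTF19 and CHL4 were at 1.52, 1.68 and 1.00 (limma adjusted p = 0.0575, 0.0578 and 0.268). Without both the 35 and the 40 µg/ml arrays, an alternative chosen after seeing the data, none was called in limma, with 2 of 10 members at an unadjusted p below 0.05. Of all 5325 strains, 77 rose in that fit and 19.8% had an unadjusted p below 0.05, so the missing calls say little about the members. Without the 40 µg/ml array alone 314 of all strains rose, against 547 with all arrays. The CHL4 call was lost without any of 8 single arrays, those of 5 to 40 µg/ml, at 1.00 to 2.26. CTF3 stayed past the threshold whichever single array was left out.

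Days of selection rise with dose, so the fit was repeated within days. Among the 5 arrays of 4 days, CTF19 and MCM16 rose, with slopes scaled to 40 µg/ml of 5.11 ± 0.97 and 5.56 ± 1.15 (limma adjusted p = 0.0313 and 0.0403). CHL4 and CTF3 had 4.76 ± 1.26 and 4.04 ± 1.09 there and did not pass (limma adjusted p = 0.076 and 0.0788). With days as a covariate, the same 2 strains passed, CTF19 at 4.27 ± 0.96 and MCM16 at 4.56 ± 1.17 (limma adjusted p = 0.032 and 0.0482). Of all 5325 strains, 93 rose and 157 fell on the 4-day arrays, and 157 rose and 182 fell with days as a covariate. Among the 4 arrays of 2 days, at 0 to 10 µg/ml, no member passed in limma, with 1 at an unadjusted p below 0.05, and MCM16 and CHL4 had slopes of the opposite sign, at -0.18 and -2.84. In the same fit 0 of all 5325 strains passed and 519 had an unadjusted p below 0.05, so the missing calls there say nothing about the members. Beyond this, dose and days cannot be told apart.

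A direct comparison of 4 days with 2 days gave no call among the members. CTF19 had a mean of 1.30 ± 1.06 (SD, n = 5 arrays) after 4 days and 0.16 ± 0.21 (SD, n = 4 arrays) after 2 days, a difference of 1.14 ± 0.48 (SE, limma adjusted p = 0.224). MCM16 differed by 1.25 ± 0.53 (limma adjusted p = 0.229) and CHL4 by 1.08 ± 0.52 (limma adjusted p = 0.279). In limma 0 of 10 members passed, and 3 of 10 had an unadjusted p below 0.05, namely CTF19, MCM16 and MCM21. Of all strains, 0.864% rose and 0.263% fell in this comparison, and 19.5% had an unadjusted p below 0.05. The 4-day arrays span 20 to 40 µg/ml, and the wide standard deviations after 4 days hold the dose course described above.

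The spots of a strain lie in 2 sections of the layout, which were taken to hold its 2 different tags. For CTF3, MCM16, CTF19 and CHL4, both sections gave similar fitted changes, at 1.63 and 1.77, 2.46 and 2.33, 2.10 and 2.31, and 1.83 and 2.19. CHL4 passed in neither section alone (limma adjusted p = 0.0711 and 0.0559). CTF19 and CHL4 have 12 spots each. At 40 µg/ml the 6 spots of CTF19 in the first section lay between 2.12 and 2.38 and the 6 in the second between 2.85 and 3.07. Those of CHL4 lay between 2.26 and 2.67 and between 2.64 and 2.91.

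MCM21 behaved differently on its 2 spots. The spot in the first section was at -1.56 at 40 µg/ml and that in the second at 3.61. Its fitted change was -0.56 ± 0.65 in the first section and 2.54 ± 0.63 in the second, where it passed (limma adjusted p = 0.59 and 0.0213). Only 0.716% of strains had sections as far apart at 40 µg/ml, and the median distance was 0.49. The value of 1.02 for MCM21 at that dose is therefore a mean of readings on opposite sides of the median. MCM22 also had unlike sections, with changes of 1.27 ± 0.43 and -0.50 ± 0.66, neither past the threshold (limma adjusted p = 0.0676 and 0.63), and 13.4% of strains had changes at least as far apart. The first section of MCM22 was at 2.08 at 40 µg/ml and the second at 0.63. For CNN1 the sections kept apart on every array, with the first between -1.35 and -0.62 and the second between -0.18 and 0.37.

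Subcomplexes were compared through the means of their strains on each array, as a description. On the arrays of 25, 30, 35 and 40 µg/ml, the Ctf3 complex had means of 0.28, 0.56, 0.91 and 2.34, and the COMA pair had means of 0.33, 0.95, 1.33 and 1.82. CHL4 and IML3 together were at 0.08, 0.53, 0.76 and 1.46, and at -0.63 at 5 µg/ml, the lowest mean of a unit of more than 1 strain on any array. The mean of NKP1 and NKP2 was at 1.41, 0.89, 1.12 and 0.41, and it stood for neither strain. The order of the COMA pair and the Ctf3 complex turned with the section. At 40 µg/ml their means were 0.36 and 2.56 in the first section, and 3.29 and 2.11 in the second.

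Differences between single strains were tested within arrays, for all 45 pairs of members, by permuting the doses over the arrays. In 8 pairs the difference changed with dose after Benjamini-Hochberg adjustment over the 45 pairs, and 19 had an unadjusted p below 0.05. All 8 were among the 39 pairs from different subcomplexes, of which 16 had an unadjusted p below 0.05, against 3 of the 6 pairs within one. The median absolute change was 1.17 within subcomplexes and 0.81 between them, so the counts do not set the kinds of pair apart. CTF3, MCM16 and CTF19 each moved away from CNN1 and from NKP1, and MCM16 also from MCM21 and IML3. MCM16 minus MCM21 rests on the first section, with a change of 3.02 ± 1.15 there and -0.21 ± 0.27 in the second (permutation p = 0.0178 and 0.451, adjusted p = 0.0891 and 0.549). The difference of MCM16 minus NKP1 grew by 2.28 ± 0.69 (two-sided permutation p = 0.00153, adjusted p = 0.0229) and that of MCM16 minus CNN1 by 2.17 ± 0.59 (p = 0.0013 by permutation, adjusted p = 0.0229). CTF3 minus CNN1 grew by 1.47 ± 0.45 (p = 0.00121 by permutation, adjusted p = 0.0229), with CTF3 above CNN1 on 10 of 10 arrays. That pair passed in the first section alone and not in the second, with 9 of 10 arrays there (permutation adjusted p = 0.0277 and 0.0605). Of the 8 pairs, only MCM16 minus CNN1 passed in both sections (permutation adjusted p = 0.0277 and 0.0272). CTF3 minus NKP1 and MCM16 minus MCM21 passed in neither.

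Among the 4 strains that rose, no pair passed this test. MCM16 minus CTF19 changed by 0.19 ± 0.45 (permutation p = 0.709, adjusted p = 0.768) and CTF3 minus CTF19 by -0.51 ± 0.34 (permutation p = 0.177, adjusted p = 0.316). Within the Ctf3 complex MCM16 minus MCM22 had a change of 2.01 ± 0.65 (permutation p = 0.0152, adjusted p = 0.0622), and CTF19 minus MCM21 one of 1.22 ± 0.50 (permutation p = 0.042, adjusted p = 0.105). CHL4 minus IML3 had a change of 1.12 ± 0.78 (permutation p = 0.187, adjusted p = 0.316). None of the 3 passed after adjustment, and the unlike sections of MCM22 and MCM21 enter their pairs. The pair results depend on single arrays. Leaving out the array at 1, 10, 30, 35 or 40 µg/ml left 0 pairs, and leaving out that at 0 µg/ml gave 17.

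**Figure D4:**
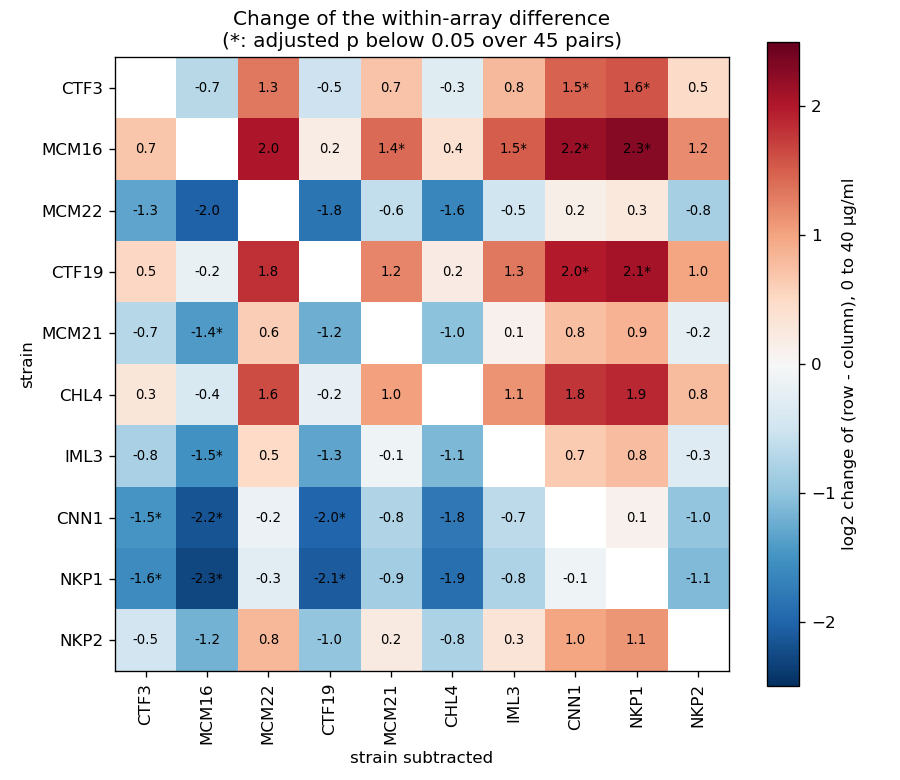
Change from 0 to 40 µg/ml of the log2 difference between the strain of the row and that of the column, on the same arrays. Asterisks mark the 8 pairs past the threshold after adjustment over 45 pairs, which set CTF3, MCM16 and CTF19 against CNN1 and NKP1 and MCM16 against MCM21 and IML3. The MCM16 and MCM21 pair had a change of -0.21 in the second section.

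Other kinetochore genes were taken from lists. Among non-essential ones, 8 of 11 were measured and WIP1, MHF1 and MHF2 were not analysed here. Of the 8, 5 rose and none fell, while 10.3% of all strains rose and 9.13% fell. The median change was 1.39, against 0.09 for all strains. SGO1, which guards centromeric cohesin, rose by 2.92 ± 0.64, with readings of 1.46 on the 5 µg/ml array and 3.07 on the 40 µg/ml array (limma adjusted p = 0.00917). LRS4 and CSM1, which form monopolin, rose by 2.23 ± 0.50 and 1.47 ± 0.38 (limma adjusted p = 0.00955 and 0.0204). LRS4 was at 1.96 and 1.95 at 35 and 40 µg/ml after values below 0 from 0 to 20 µg/ml, while CSM1 reached 1.56 at 25 µg/ml. IRC15, a microtubule-associated protein whose gene overlaps CTF19, rose by 1.60 ± 0.43, and SLK19, a kinetochore and spindle midzone protein, by 1.31 ± 0.40 (limma adjusted p = 0.0241 and 0.0383). YBP2, PSH1 and CBF1 did not pass, at 0.50 ± 0.31, 0.07 ± 0.24 and -0.10 ± 0.43. LRS4, CSM1, IRC15 and SLK19 lost their calls when the 40 µg/ml array was left out, at 1.88, 1.53, 0.99 and 0.66, and that of SLK19 without 6 single arrays in all. CSM1 was also lost without the array at 0 or 1 µg/ml, at 1.35 and 1.45, and IRC15 without that at 35 µg/ml, at 1.61. With days as a covariate LRS4 alone of the 5 passed, at 4.33, while SGO1, CSM1, IRC15 and SLK19 were at 1.58, 1.11, 3.09 and 2.67 (limma adjusted p = 0.0364 for LRS4 and 0.579, 0.513, 0.0813 and 0.0976 for the others). On the 4-day arrays LRS4 was again the single call, and SGO1 was at 0.04 (limma adjusted p = 0.0214 and 0.993). None of the 5 passed with arrays scaled to equal spread, where SGO1 was at 1.56, and LRS4 alone passed after quantile normalization, where SGO1 was at 1.63 (limma adjusted p for SGO1 = 0.434 and 0.291). Against log2(dose + 1), SGO1 and CSM1 passed (limma adjusted p = 0.00347 and 0.0466). Of all strains, 157 rose with days as a covariate and 93 on the 4-day arrays. With equal spread 41 rose, after quantile normalization 111 and against log2(dose + 1) 232.

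Haploids lacking an essential kinetochore gene are not thought to grow, so their tags give the level of the measure where a haploid strain is not expected. None of the 5 essential inner kinetochore strains passed in limma, and none had an unadjusted p below 0.05. Of all strains, 10.3% rose, 9.13% fell and 33.3% had an unadjusted p below 0.05 in this fit. With only 5 strains, the missing calls say little about them. OKP1 and AME1, the partners of CTF19 and MCM21 in COMA, were at -1.11 ± 0.62 and 0.16 ± 0.69. MIF2, CSE4 and SCM3, which encode the CENP-C counterpart, the centromeric histone and its chaperone, were at -0.23 ± 0.45, -0.26 ± 0.53 and -0.20 ± 0.59. Single arrays of such strains still went far from the median, with OKP1 at 2.06 at 1 µg/ml and AME1 at 2.09 at 15 µg/ml. Values near 2 on 1 array are thus within the range seen for these tags. Of 24 genes of the outer kinetochore and the CBF3 complex listed as essential, 21 were measured and none passed in limma. KRE28 and SPC25, at 1.49 ± 0.64 and 1.52 ± 0.68, were the 2 with an unadjusted p below 0.05, and the median change was 0.01.

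The strains whose course was most like the mean course of the 10 members were picked by Pearson's r over the 10 arrays, as a description. The spindle checkpoint gene MAD2 came first, with r = 0.99, but on a larger scale, with 7.57 at 40 µg/ml. PNP1, MRH4, SET2, MRPL24, ISY1, MKK1, AHP1, SSP1 and THI3 followed, with r from 0.974 for THI3 to 0.984 for PNP1. THI3 was nearest in level, with a root mean square difference of 0.30 on the log2 scale. The nearest to CTF19 were THI3, PAU11, MRN1, NSG1 and EMP46, with r from 0.966 to 0.976, and the nearest to MCM16 were CTF8, CST26, MRH4, ARD1 and ELM1, with r from 0.970 to 0.977. CTF8, a subunit of the alternative clamp loader that acts in cohesion, was at 2.31 at 40 µg/ml, and its r with MCM16 was 0.57 without the arrays at 35 and 40 µg/ml. These correlations share the growing spread of the arrays.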

How the data were processed

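Deposited values are log2 ratios per spot of a 2-colour tag array, 1 column for each of 10 arrays. Per the labels, images came from a GenePix4000B scanner and were read with GenePix5.1. Neither the numerator of the ratio nor a normalisation by the authors is stated in the labels. The table has 22575 spots, and the platform annotation assigns 18794 of them to 5325 genes, 1 gene per spot. For 5321 genes the current symbol was looked up by gene number. The ratio of 1000000 occurred 18 times and was treated as missing. The lowest ratio on 9 arrays was 0.01.

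Each array was centred on the median of its named spots, and the spots of a gene were averaged. All 5325 strains had values on at least 8 arrays. The dose trend is a straight line against dose fitted over all strains in limma 3.58.1 (R 4.3.3, lmFit and eBayes, 8 residual and 3.34 prior degrees of freedom). The second comparison set the 5 arrays of 4 days against the 4 arrays of 2 days. The Benjamini-Hochberg adjustment ran over all strains, and 0.05 was the threshold. For each of 45 pairs of members, the slope of the within-array difference was tested by 100000 permutations of the doses (Python 3.11.15), or by all orders where 9 or fewer arrays entered.

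On simulated data with the residuals of the real arrays, the dose trend recovered 70% of strains given a log2 change of 2 and 95% of those given 4, with 8 false calls among the 5125 strains given no change. The residuals of each strain were shuffled over the arrays, which removes the growth of the spread with dose. These figures thus do not measure recovery or false calls in the real fit. There, calls over all strains went from 1033 to 65 with arrays scaled to equal spread. Precision is limited by there being 10 arrays. The labels do not say which arrays shared a culture or sporulation, so the p-values measure the scatter of these arrays, which may be technical. Alternatives were other scalings, spot averages, sections, dose scales, arrays and a robust prior. The members and gene lists were chosen with earlier results of these data known. All 10 members are named, as are all genes of the lists of other non-essential and essential inner kinetochore genes and the strains most like the members by Pearson's r (10 for their mean course, 5 each for CTF19 and MCM16). Called genes of the outer kinetochore list were to be named too, and none was called. KRE28 and SPC25 of that list were named after their values were seen. No tag, promoter or protein sequences were used here.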

Additional observations from a re-analysis of the deposited data

How the results depend on the processing

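The count of 4 members that rose depends on how the spread of the arrays and the dose axis are treated. It was 0 with arrays scaled to equal spread, 1 after quantile normalization, 0 against log2(dose + 1), 2 on the 4-day arrays, 0 on the 2-day arrays, 2 with days as a covariate and 0 without the 35 and 40 µg/ml arrays together, in limma, and it ranged from 1 to 4 when single arrays were left out. Of all strains, 547 rose in the reported fit. In the same order of settings 41, 111, 232, 93, 0, 157 and 77 rose, and 314 to 614 when single arrays were left out. Members with an unadjusted p below 0.05 numbered 6 in the reported fit, 6 with equal spread, 4 against log2(dose + 1), 1 on the 2-day arrays and 2 without both top doses. Of all strains 33.3% had an unadjusted p below 0.05 in the reported fit, 18.5% with equal spread, 26.2% against log2(dose + 1), 9.75% on the 2-day arrays and 19.8% without both top doses. The count was 3 with the robust prior, where CHL4 was at a limma adjusted p of 0.0508, and 3 with the first section only. Of all strains, 537 and 507 rose there. On the 2-day arrays MCM16 and CHL4 had slopes of opposite sign, at -0.18 and -2.84, which extend a line from 0 to 10 µg/ml up to 40 µg/ml. With ratios as deposited, all strains had a median change of 0.33, against 0.09 in the reported fit, and MCM21 (1.23) and IML3 (1.13) passed too, so that 6 rose. Of all strains, 851 rose with these ratios. The share of calls over all strains that rose was 53.0% in the reported fit, 69.2% as deposited, 63.1% with equal spread and 43.5% after quantile normalization. No member fell, and none was called between 4-day and 2-day arrays, under any alternative run. The 8 pairs became 0 with equal spread, 0 after quantile normalization, 4 with the first section only, 0 against log2(dose + 1), 0 on the 4-day arrays and 0 without the 35 and 40 µg/ml arrays together, and 0 to 17 when single arrays were left out. With equal spread, quantile normalization, log2(dose + 1) and neither top dose, 5, 5, 2 and 2 pairs had an unadjusted permutation p below 0.05, and the single omissions that left 0 pairs had 8 to 18. With the 5 arrays of 4 days the smallest permutation p is 0.0167, which would pass only if at least 15 of 45 pairs reached it, so the 0 there says nothing about the pairs. The causes were not tested. On the 2-day arrays 4 points cannot reach the threshold by permutation, so pairs were not tested there. No paired analysis was possible because each dose has 1 array.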

Other observations

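The nearest protein-coding neighbours of the 10 member genes, taken from the RefSeq annotation of assembly R64, give the values of strains with a deletion next to each member. Of 20 neighbours, 19 were measured, and 2 rose and 3 fell, with a median change of 0.22, while 10.3% of all strains rose and 9.13% fell. IRC15 lies beside CTF19 and overlaps it by 27 bases. The IRC15 strain was at 0.95, 1.22 and 2.25 at 30, 35 and 40 µg/ml, where CTF19 was at 1.79, 1.64 and 2.62. Whether the deletion of one gene of this pair touches the other was not tested. On the other side of CTF19, VTC3, of the vacuolar polyphosphate synthase, had a change of -0.75 ± 0.39 (limma adjusted p = 0.199). NAM2, the mitochondrial leucyl-tRNA synthetase next to CTF3, rose by 2.43 ± 0.44 (limma adjusted p = 0.00382) and was at 1.07 at 5 µg/ml, where CTF3 was at 0.24.

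The 3 neighbours that fell lay beside CHL4, IML3 and NKP1. RMD5, a subunit of the GID ubiquitin ligase beside CHL4, had a change of -2.35 ± 0.73, AIM3 beside IML3 one of -1.20 ± 0.25, and RPP2B, a ribosomal stalk protein beside NKP1, one of -5.91 ± 0.68 (limma adjusted p = 0.0425, 0.00713 and 0.000322). At 40 µg/ml RPP2B was at -6.81, the lowest value on that array, so the size of its change is partly set by that floor. NKP2 overlaps the essential gene TAD3, of a tRNA deaminase, by 4 bases. TAD3 was at -1.11 and -1.47 at 10 and 15 µg/ml, where NKP2 was at 1.59 and 0.86, and at 1.28 and 1.51 at 25 and 30 µg/ml, where NKP2 was at 2.54 and 1.88.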
